A study of Bos taurus with 9 samples.

Results

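The untreated endometrial co-culture was described from the 3 control arrays of a series of 9, chosen by their titles, with no value from a treated array used. Each control sample was total RNA of bovine endometrial stromal and epithelial cells grown together and given phosphate-buffered saline (PBS), hybridised to 1 Affymetrix bovine expression array. The cows were Holstein/Polish Black and White animals on days 2 to 5 of the oestrous cycle, and the cells were seeded at 3 stromal to 1 epithelial. They attached in medium with 10% fetal calf serum over 24 to 48 h, and were then moved to fresh medium with 0.1% albumin for the 6 h exposure. Each sample pooled RNA of 3 cows, and 9 cows served 9 pools in the study, so some pools must share animals. The labels do not say which, so whether the 3 control pools had cows in common is not known. The SD between arrays is a spread between pools, not between single cows.

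The lining of the cow's uterus is built of a surface and glandular epithelium, which secretes the fluid that feeds an early embryo, and a fibroblast-like stroma, which lays down the matrix and answers to steroid hormones. Both compartments make prostaglandins, which in cattle decide whether the corpus luteum persists, and both carry receptors through which the embryo's interferon tau and lipid mediators such as lysophosphatidic acid (LPA) act. A baseline of untreated cells shows which of these genes gave a signal in the mixed culture with no LPA or interferon tau added. It does not show which compartment a signal came from.

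Levels are deposited log2 values made by RMA, a method that removes background, brings arrays to 1 common distribution and condenses each probe set to a single number per array. The array has 24016 probe sets beside 112 control probe sets. The trp probe sets, which match a bacterial transcript, gave values from 2.08 to 2.73 on the 3 control arrays, and the highest of them was taken as the trp level. A gene was placed at the trp level when no control array exceeded 2.73 and called mixed when 1 or 2 arrays did. Above it on all 3 arrays, a gene was dim below the median of all probe sets (4.33), middle from there to their 90th percentile (10.55), and bright from that value up. The brightest probe set stood for a gene. Probe sets differ in how strongly they bind, so a band says where a signal lay on the array and not how many transcripts of 1 gene there were against another. A gene at the trp level was not detectable by its probe set, which does not show that the transcript was absent.

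By these limits 7005 of 9155 named genes (76.5%) lay above the trp level on all 3 arrays. Of the named genes 1720 (18.8%) were bright, 4603 middle, 682 dim (7.45%), 139 mixed and 2011 at the trp level (22.0%). Over single probe sets, named or not, 62.4% lay above the trp level on all 3 arrays and 10.0% were bright. The levels of named genes formed a narrow peak around the trp values and a broad hump centred between the median and the bright limit. The bacterial bioB transcript, the most dilute of the hybridisation controls, gave values of 2.30 to 4.22 over its 6 probe sets, so parts of it were no brighter than trp. The next control, bioC, already stood at 9.29 to 10.19.

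**Figure D1:**
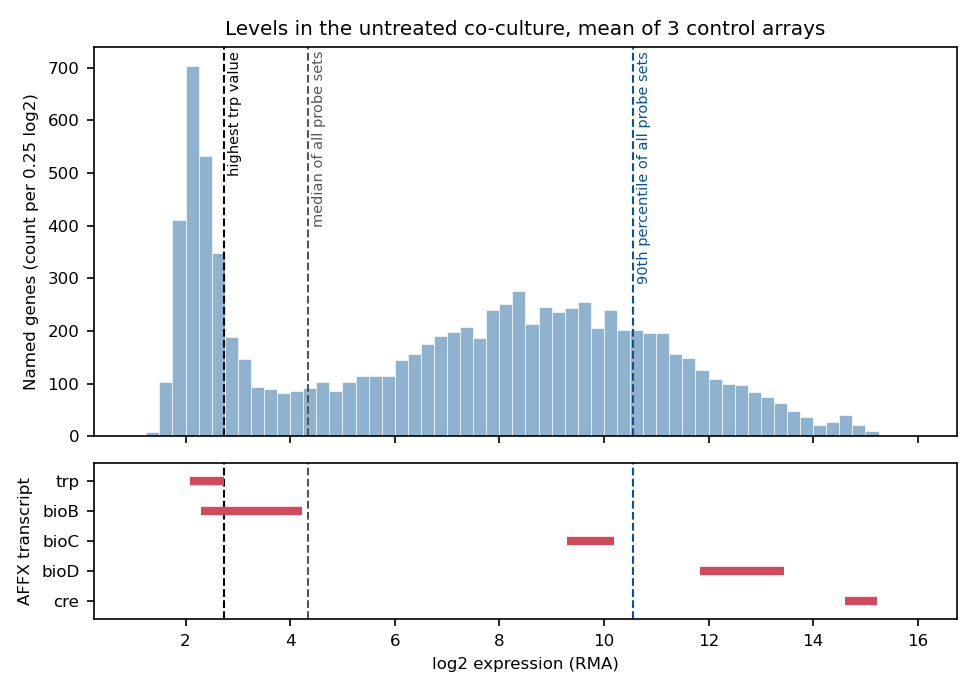
The upper panel shows the number of named genes per 0.25 log2 units against their level (log2 expression, mean of 3 control arrays, brightest probe set per gene), with dashed lines at the highest trp value (2.73), the median (4.33) and the 90th percentile (10.55) of all probe sets. The lower panel shows the range of single-array values of AFFX control transcripts: trp and bioB lie at the low peak, while bioC, bioD and cre lie to its right.

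The 3 control arrays were much alike. Their medians were 4.35, 4.34 and 4.30, and between 63.1% and 64.7% of probe sets lay above the trp level on each. Pearson's r between arrays over all probe sets was 0.998 to 0.999, a description across probe sets. Transcripts spiked into the RNA before labelling (lys, phe, thr and dap) each averaged lowest on replicate 2, for example lys at 6.77, 6.29 and 6.63 and dap at 10.59, 10.20 and 10.61 on replicates 1, 2 and 3. The difference of the 3' and 5' GAPDH probe sets was 0.55 on replicate 1, 0.22 on replicate 2 and 0.24 on replicate 3, and that of eIF-4E was 4.02, 3.53 and 3.44, so both were largest on replicate 1. Replicate 2 was also the lowest array for 12 of the 15 most variable named genes, among them LTF and CCL5, but for 22 of the 47 that ranged over more than 1 log2 unit.

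Genes of epithelial cells gave strong signals in the culture. EPCAM, the epithelial cell adhesion molecule, gave 13.95, 14.09 and 14.13 on replicates 1, 2 and 3, a level of 14.05 ± 0.09 (mean ± SD, n = 3, as for all values given with ±) at percentile 99.4 of all probe sets. CDH1, which encodes E-cadherin of epithelial adherens junctions, gave 12.18, 12.18 and 12.17. The arrays lay within 0.2 units of each other, and both genes were bright on each. The second probe set of CDH1 lay in the middle band, at 7.06.

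All 25 measured epithelial markers lay above the trp level on all 3 arrays, against 76.5% of named genes, and 10 were bright, against 18.8%. The keratins KRT19 (13.66 ± 0.12), KRT7 (12.41 ± 0.07) and KRT18 (11.86 ± 0.06), which form the intermediate filaments of simple epithelia, were bright. So were ESRP1 (11.88 ± 0.11), an epithelial splicing factor, the apical mucin gene MUC1 (11.62 ± 0.27), PERP (11.49 ± 0.18) of desmosomes, SPINT2 (11.29 ± 0.06), an inhibitor of membrane serine proteases, and MAL2 (10.75 ± 0.32), of apical transport. Genes of tight junction claudins were in the middle band, with CLDN1 at 10.26 ± 0.14, CLDN4 at 10.17 ± 0.09, CLDN7 at 9.92 ± 0.09 and CLDN3 at 8.69 ± 0.18. KRT8, the usual filament partner of KRT18, had a dim probe set (3.33 ± 0.06), as had the epithelial transcription factor gene EHF (2.94 ± 0.07) and the tight junction scaffold gene TJP1 (2.84 ± 0.05).

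**Figure D2:**
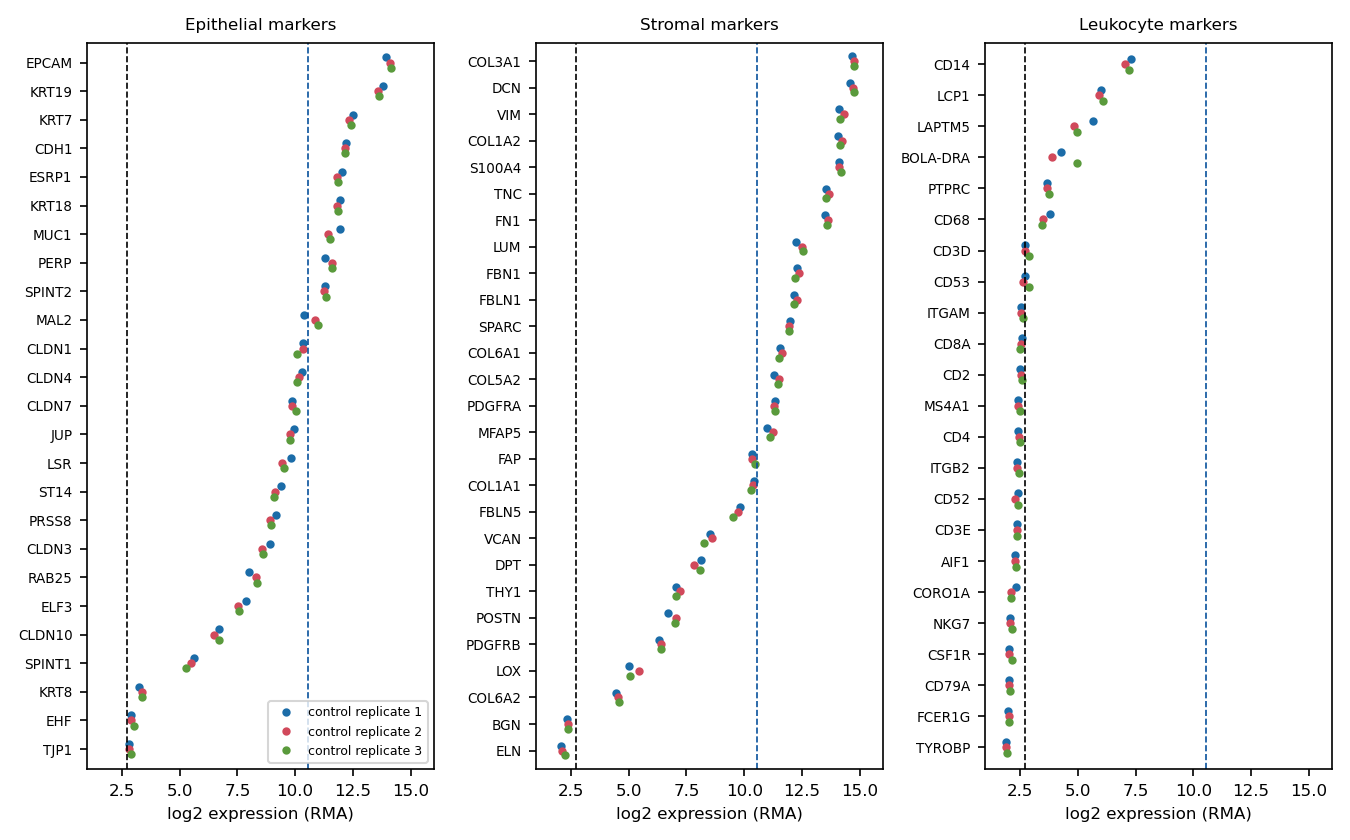
Level of each measured epithelial, stromal and leukocyte marker (log2 expression) on control replicates 1, 2 and 3, each point 1 array, with dashed lines at the trp level (2.73) and at the bright limit (10.55). All 25 epithelial and 25 of 27 stromal markers lie to the right of the trp line on every array, while 15 of 23 leukocyte markers lie to its left on all 3.

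Products of the uterine glands and surface were split. Of 15 measured secretory and gland genes 10 lay above the trp level on all 3 arrays and 4 were bright, against 76.5% and 18.8% of named genes. CST6, the gene of the secreted cysteine protease inhibitor cystatin M, stood at 14.52 ± 0.05, and SPP1, which encodes osteopontin, a secreted ligand of integrins at implantation, at 14.21 ± 0.11. ANXA4 (12.65 ± 0.11) and AGR2 (11.01 ± 0.11), an endoplasmic reticulum protein of mucus-secreting cells, were bright too. SERPINA14, the uterine serpin secreted by ruminant glands, gave 10.20, 9.88 and 10.72, and LTF, the gene of the antimicrobial protein lactoferrin, gave 9.46, 8.22 and 9.86. In both the lowest value came from replicate 2, and their SDs of 0.42 and 0.86 were above the median SD of named genes above the trp level (0.09).

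The other genes of this set lay in lower bands. S100G (9.06 ± 0.08) and STC1 (7.61 ± 0.42) were in the middle band, SLPI (3.75 ± 0.52) and the transcription factor gene PAX8 (3.13 ± 0.30) were dim, and PIGR (2.64 ± 0.14), the receptor that carries immunoglobulins across epithelia, was mixed. PAEP (2.12 ± 0.06), MSLN (2.15 ± 0.01), GPX3 (2.07 ± 0.01) and TFF3 (1.90 ± 0.09) were at the trp level on all 3 arrays.

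Genes of the stromal matrix gave strong signals as well. COL3A1, the gene of type III collagen, gave 14.67, 14.75 and 14.73 on its brighter probe set and 14.17 on average on the other, both bright. COL1A1, a chain of type I collagen, gave 10.44, 10.37 and 10.29, just under the bright limit, while its second probe set was at the trp level with a mean of 2.36. THY1, a surface glycoprotein of fibroblasts, gave 7.05, 7.24 and 7.04, in the middle band. The 3 arrays lay within 0.2 units of each other for each of these genes.

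Of 27 measured stromal markers 25 lay above the trp level and 15 were bright, against 76.5% and 18.8% of named genes. DCN (14.68 ± 0.08) and LUM (12.43 ± 0.17), small proteoglycans that bind collagen fibrils, VIM (14.18 ± 0.10), the intermediate filament of mesenchymal cells, COL1A2 (14.14 ± 0.08) and S100A4 (14.13 ± 0.04), a calcium-binding protein of motile cells, were bright, as were FN1 (13.56 ± 0.06), TNC (13.58 ± 0.06), FBN1 (12.28 ± 0.09), SPARC (11.96 ± 0.04) and PDGFRA (11.33 ± 0.04), the receptor of platelet-derived growth factor. COL6A1, a chain of type VI collagen, was bright by 1 of 3 probe sets (11.56 ± 0.08). FN1 and TNC each had a second probe set at the trp level (2.10 and 1.65), and PDGFRA had 2 others there. PDGFRB (6.38 ± 0.04), POSTN (6.92 ± 0.18) and the collagen cross-linking enzyme gene LOX (5.17 ± 0.23) were in the middle band. BGN (2.35) and ELN (2.14 ± 0.09), the gene of elastin, were at the trp level with both probe sets.

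Of the transcription factors that pattern the female tract, all 9 that could be measured lay above the trp level, beside 76.5% of all named genes. MSX1 (12.84 ± 0.05), a homeobox gene of the endometrium, was the only bright one, where 18.8% of all named genes were bright. NR2F2 (8.83 ± 0.06), which encodes COUP-TFII of the uterine stroma, HOXA9 (8.53 ± 0.17), MEIS1 (8.04 ± 0.10), MEIS2 (7.70 ± 0.03), HOXD10 (7.41 ± 0.20), EMX2 (7.30 ± 0.13) and HOXA10 (6.10 ± 0.09) were in the middle band. TCF21 (3.55 ± 0.03), a stromal factor, was dim.

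Markers of other cell types that an endometrial isolate could hold were mostly at the trp level, while 76.5% of all named genes lay above that level. In the red blood cell list 0 of 6 lay above it, with the globin genes HBA at 2.30 ± 0.05 and HBB at 2.20 ± 0.03, AHSP at 2.34 ± 0.06, EPB42 at 2.25 ± 0.02, ALAS2 at 2.19 ± 0.04 and SLC4A1 at 2.08 ± 0.01. Of 13 endothelial markers 1 was above it, FLT1 (3.38 ± 0.05), a receptor of vascular endothelial growth factor, in the dim band. With the trp level raised by 1, or with the probe sets of a gene averaged, 0 of the 13 were. PECAM1 (2.29 ± 0.05), CDH5 (1.94), VWF (1.89 ± 0.04), KDR (2.41 ± 0.05) and TEK (2.49 ± 0.06), which define endothelium, were at the trp level. So were EMCN (2.50 ± 0.06), PLVAP (2.40 ± 0.06), LYVE1 (2.36 ± 0.02), CLDN5 (2.34 ± 0.13), ERG (2.09 ± 0.04), TIE1 (1.96 ± 0.03) and EGFL7 (1.84 ± 0.03). In bulk RNA, fewer cells of a type and less RNA per cell cannot be told apart.

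Leukocyte markers lay above the trp level for 6 of 23 genes, against 76.5% of named genes, and 0 were bright, against 18.8%. CD14, a co-receptor for bacterial lipopolysaccharide that fibroblasts can also make, was at 7.18 ± 0.12 on 1 probe set and at the trp level (2.22) on the other. LCP1, an actin-bundling protein of blood cells, was at 6.00 ± 0.08, and LAPTM5 at 5.16 ± 0.43. The pan-leukocyte gene PTPRC was dim (3.69 ± 0.05), as was CD68 (3.60 ± 0.19), and BOLA-DRA, an MHC class II chain, stood at 4.38 ± 0.55. CD3D (2.78 ± 0.10) and CD53 (2.75 ± 0.13) were mixed. The remaining 15, among them CD2 (2.55 ± 0.04), CD3E (2.37 ± 0.01), CD4 (2.46 ± 0.05), CD8A (2.55 ± 0.04), MS4A1 (2.46 ± 0.05), ITGAM (2.56 ± 0.06), CSF1R (2.07 ± 0.06), FCER1G (2.01 ± 0.02) and TYROBP (1.92 ± 0.03), which mark T cells, B cells and myeloid cells, were at the trp level. With the median of the trp values in place of the highest, 11 of the 23 counted as above. With the trp level raised by 1, PTPRC and CD68 no longer lay above it on every array.

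Genes of smooth muscle and pericytes were above the trp level in 7 of 11 cases and bright in 0, beside 76.5% and 18.8% of all named genes. TAGLN (10.41 ± 0.24), ACTA2 (10.30 ± 0.14) and CNN1 (8.14 ± 0.15), contractile genes that cultured stromal cells can also make, stood in the middle band beside MCAM (7.49 ± 0.20), SMTN (6.78 ± 0.40), LMOD1 (6.45 ± 0.01) and DES (5.38 ± 0.60). MYH11 (2.41 ± 0.02), the heavy chain of differentiated smooth muscle, and the pericyte markers RGS5 (2.54 ± 0.01) and CSPG4 (2.49 ± 0.03) were at the trp level, as was KCNMB1 (2.07 ± 0.04).

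A list of 28 measured genes that belong to other organs was read in the same way. Of all named genes 22.0% were at the trp level, 76.5% lay above it on all 3 arrays and 18.8% were bright. At the trp level stood 18 of them, among them INS (1.88 ± 0.04), GFAP (1.86 ± 0.03), LALBA (2.04 ± 0.02), APOA1 (2.09 ± 0.04), SFTPC (2.13 ± 0.02) and UMOD (2.06 ± 0.01). Above it were 10, and 2 were bright: ALB, the gene of serum albumin, at 11.18 ± 0.06, and GH1, the gene of growth hormone, at 10.65 ± 0.05. PRL, the gene of prolactin (10.05 ± 0.07), CKM (9.89 ± 0.08) and MYH7 (8.58 ± 0.11), which encode proteins of muscle, were in the middle band, as were MYL3 (5.91 ± 0.14) and ACTA1 (4.46 ± 0.05) of striated muscle. The milk protein gene CSN2 (4.03 ± 0.06) was dim. ALB has 9 probe sets under its name, of which 1 was bright and 3 were at the trp level. GH1 has 6, of which 1 was bright and 5 were at the trp level, and the lower probe sets of CKM and MYH7 were at 2.36 and 2.03. PRL also has 6, of which 2 lay above the trp level on all 3 arrays, 3 were at it and the other was mixed. With the probe sets of a gene averaged, 0 of the 28 were bright.

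Probe sets of 1 gene also disagreed elsewhere. Of the 9155 named genes 2913 had over 1 probe set, and the brightest and dimmest lay apart by a median of 2.84 log2 units. In 131 genes 1 probe set was bright and another at the trp level. Among the list members these were 16: ALB, GH1, COL6A1, FN1, PDGFRA, TNC, IFNGR2, PTGS2, PGRMC1, TGFBR2, FGF1, CTSB, ITGB3, CANX, RPS12 and RPL9. For these genes the band rests on the choice of probe set, and the same holds for others outside this group. The second probe set of the bright gene CST6 was dim (2.86), and that of LTF was mixed (2.69). AGPAT3, TRAF6, IRF7, PPARD and MEIS2, all in the middle band, also had a probe set at the trp level.

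**Figure D3:**
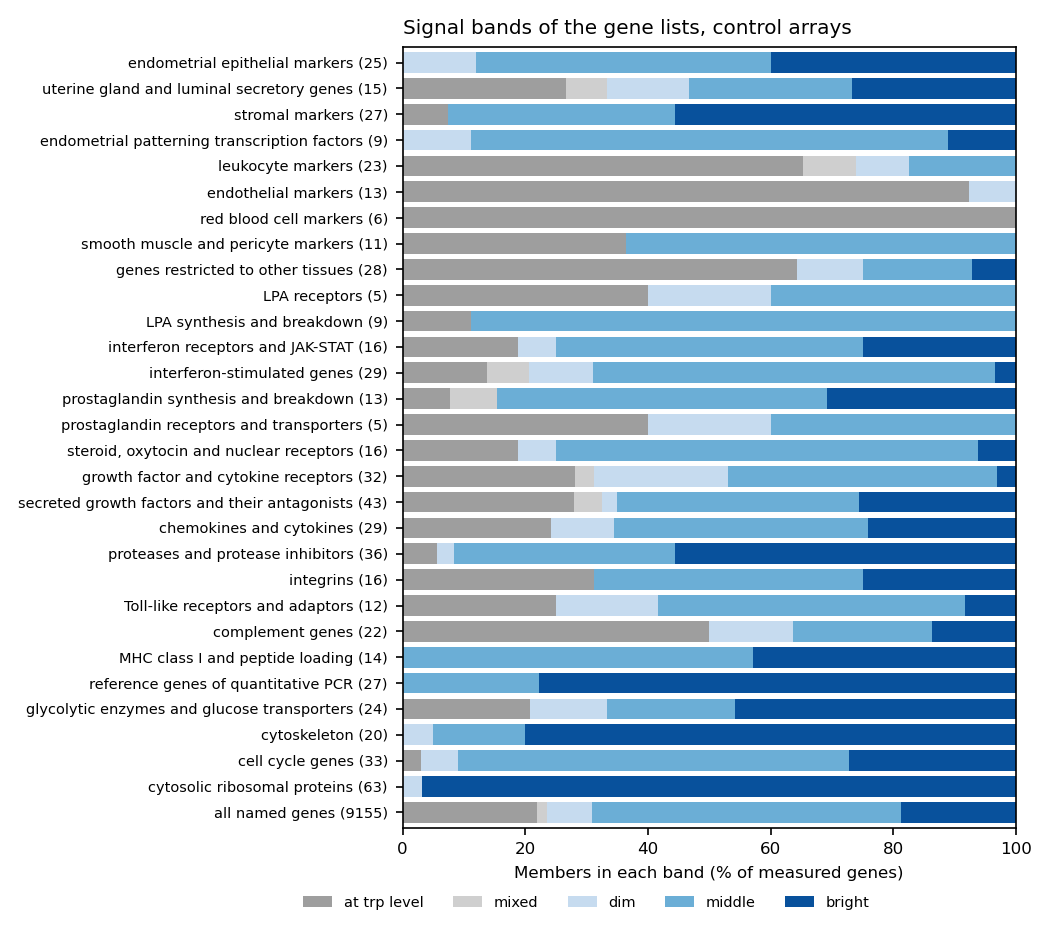
Share of the measured members of each gene list in each signal band (percent, horizontal axis, number measured in brackets), from the mean and single values of the 3 control arrays, with all 9155 named genes as the last bar. Ribosomal, cytoskeletal and reference genes are mostly bright, and red blood cell and endothelial markers are nearly all at the trp level.

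Of 5 measured receptors for LPA, 3 lay above the trp level and 0 were bright, beside 76.5% and 18.8% of all named genes. LPAR6, a receptor of the purinergic-like branch, gave 7.19, 7.34 and 7.39, and LPAR2, of the classical branch, gave 5.68, 5.48 and 5.50, both in the middle band. LPAR1 gave 3.37, 3.21 and 3.41, in the dim band. LPAR4 (2.36 ± 0.05) and LPAR5 (2.19 ± 0.06) were at the trp level on every array. LPAR6, LPAR2 and LPAR1 lay above every trp value on each array, and LPAR4 and LPAR5 lay within the trp range. LPAR3 had no probe set with its name alone and was not analysed here.

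Of 9 enzymes that make or remove LPA, 8 lay above the trp level and 0 were bright, beside 76.5% and 18.8% of all named genes. ENPP2, which encodes autotaxin, the secreted enzyme that makes LPA from lysophosphatidylcholine, gave 6.36, 6.10 and 6.14. The lipid phosphate phosphatases that degrade LPA at the cell surface stood at 10.33 ± 0.02 (PLPP2), 8.51 ± 0.09 (PLPP3) and 8.38 ± 0.16 (PLPP1). Acyltransferases that use LPA to build phospholipids were in the middle band with AGPAT3 at 10.16 ± 0.10, AGPAT5 at 9.09 ± 0.05, AGPAT1 at 7.60 ± 0.47 and AGPAT2 at 6.28 ± 0.23. PLA1A, a phospholipase, was at the trp level (2.18 ± 0.04).

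Interferon receptors and their signalling chain were measured in 16 genes, of which 13 lay above the trp level and 4 were bright, shares near those of all named genes (76.5% and 18.8%). With the probe sets of a gene averaged, 2 were bright. IFNAR1, a chain of the type I receptor, gave 4.30, 4.52 and 4.58, close to the median of all probe sets, and its partner IFNAR2 gave 7.88, 7.96 and 8.10. The kinase gene JAK1 was bright (12.44 ± 0.04), and so were SOCS2 (11.35 ± 0.04) and PTPN2 (11.10 ± 0.04), which restrain such signalling, and the interferon gamma receptor chain IFNGR2 (10.72 ± 0.05), whose other probe set was at the trp level. Transcription factors stood in the middle band, with IRF3 at 9.83 ± 0.02, STAT3 at 9.75 ± 0.16, IRF7 at 8.34 ± 0.22, STAT6 at 7.46 ± 0.20, IRF9 at 6.23 ± 0.31 and STAT2 at 6.05 ± 0.06. PTPN6, a phosphatase of blood cells, was dim (3.35 ± 0.04), and STAT5B (2.62 ± 0.02), SOCS3 (2.52 ± 0.04) and IRF2 (2.17 ± 0.04) were at the trp level.

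**Figure D4:**
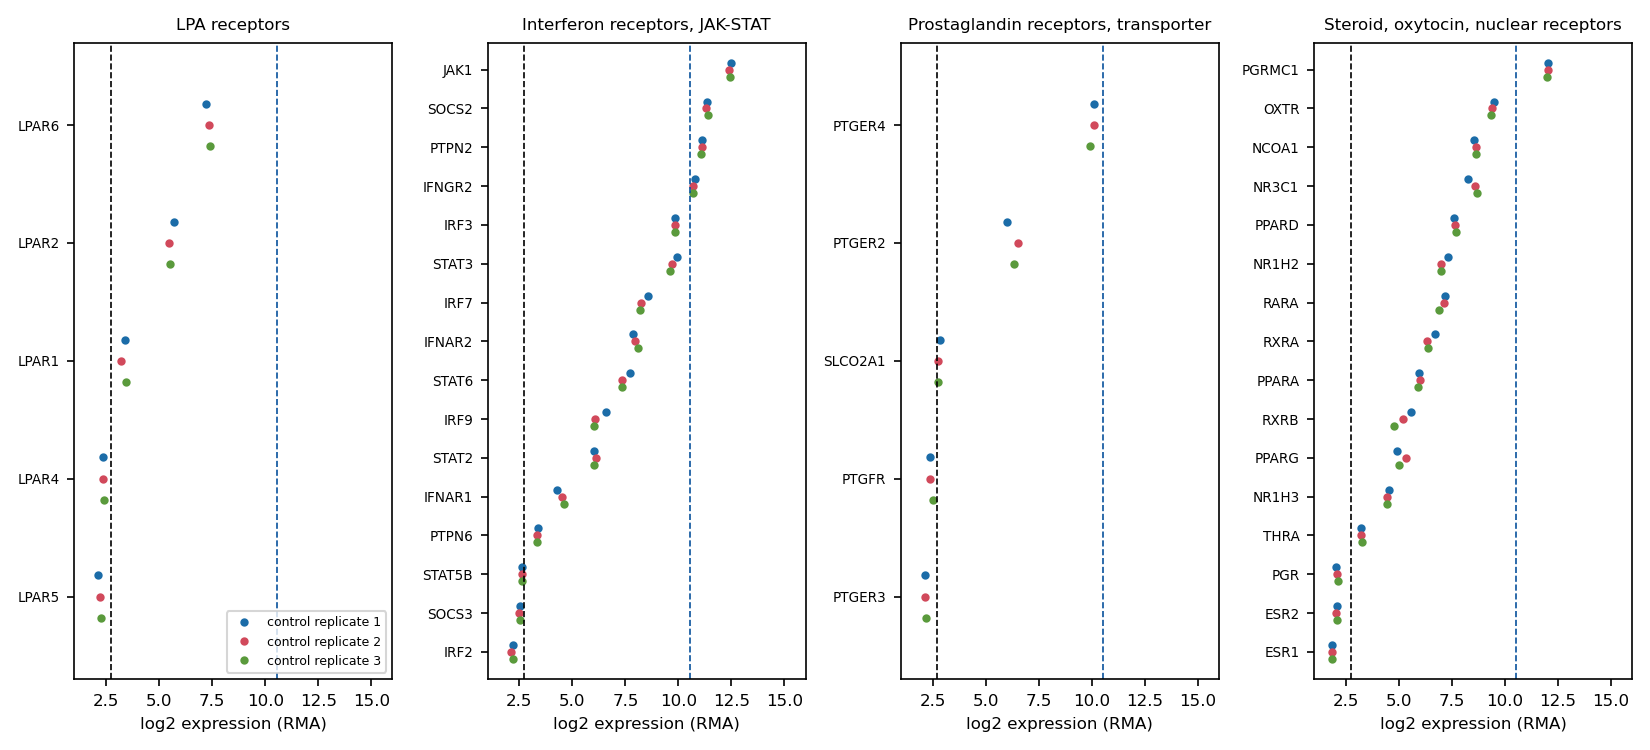
Level of receptor and signalling genes (log2 expression) on control replicates 1, 2 and 3, each point 1 array, in panels for LPA, interferon, prostaglandin and steroid, oxytocin and nuclear receptors, with dashed lines at the trp level (2.73) and the bright limit (10.55). LPAR4, LPAR5, PTGFR, PTGER3, PGR, ESR1 and ESR2 lie left of the trp line on all 3 arrays, and PGRMC1, a bright gene, lies to the right of the other line.

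Genes that interferon induces were seldom bright with no interferon added. Of 29 measured 23 lay above the trp level, a share near the 76.5% of all named genes, and 1 was bright, against 18.8% of all named genes: TRIM25 (11.49 ± 0.16), a ubiquitin ligase of RNA sensing. IFIT5 (10.46 ± 0.09), EIF2AK2 (10.37 ± 0.31), the RNA-dependent kinase, PARP14 (9.80 ± 0.09), DTX3L (9.41 ± 0.04), XAF1 (8.97 ± 0.14), IFI35 (8.73 ± 0.08), PARP9 (8.53 ± 0.06) and IFI16 (8.22 ± 0.11) stood in the middle band. ISG15, the ubiquitin-like modifier, gave 7.89, 7.94 and 7.97, and MX1, an antiviral GTPase, gave 7.54, 7.42 and 7.45. MX2 gave 2.12, 2.11 and 2.12 and was at the trp level together with IFIT2 (2.09 ± 0.05), OAS1X (2.05 ± 0.04) and PLAC8B (1.92 ± 0.02), while IFI44 and IFI44L were mixed. On every array MX1 lay above the trp level and MX2 below it.

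Of 13 measured genes of prostaglandin synthesis and breakdown 11 lay above the trp level and 4 were bright (76.5% and 18.8% of named genes). With the probe sets of a gene averaged, 2 were bright. PTGS2, the inducible cyclooxygenase, gave 13.00, 12.88 and 13.07 on its brightest probe set and stood at percentile 98.2, while its other probe sets were at 3.44 and 2.41. PTGS1, the constitutive form, was bright as well (10.77 ± 0.14). AKR1B1, an aldo-keto reductase that can form prostaglandin F2α, stood at 12.28 ± 0.05, and PTGES3, a prostaglandin E synthase that is also an HSP90 co-chaperone, at 14.56 ± 0.02. The inducible synthase gene PTGES was in the middle band (6.46 ± 0.12), as were TBXAS1 (7.80 ± 0.09), PTGDS (6.02 ± 0.33), AKR1C4 (6.36 ± 0.15), PTGR1 (9.48 ± 0.05), PTGR2 (9.43 ± 0.20) and HPGD (4.88 ± 0.20), the main enzyme of breakdown. AKR1C3 was mixed, and the prostacyclin synthase gene PTGIS was at the trp level (2.46 ± 0.03).

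On the receiving side PTGER4 (10.03 ± 0.11) and PTGER2 (6.30 ± 0.26), receptors of prostaglandin E2, stood in the middle band. The transporter gene SLCO2A1 gave 2.84, 2.75 and 2.78, barely over the trp level. PTGFR, the receptor of prostaglandin F2α, was at the trp level with its brightest probe set (2.44 ± 0.07), and PTGER3 was too (2.15 ± 0.02).

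Receptors of oestrogen and progesterone were not detectable by their probe sets. Of the 16 genes of the steroid, oxytocin and nuclear receptor list 13 lay above the trp level, a share near the 76.5% of all named genes. Bright was 1 of the 16, beside 18.8% of all named genes. ESR1 gave 1.84, 1.85 and 1.85, ESR2 2.11, 2.02 and 2.09 and PGR, the progesterone receptor gene, 2.06, 2.11 and 2.11. Each has 1 probe set under its name, and each lay under the trp level on all 3 arrays. The oxytocin receptor gene OXTR, which drives the luteolytic release of prostaglandin, gave 9.49, 9.39 and 9.35, at percentile 82.8. The glucocorticoid receptor gene NR3C1 was in the middle band (8.51 ± 0.24), and PGRMC1, a haem-binding membrane protein related to progesterone signalling, was the 1 bright gene of the list (12.01 ± 0.02), with another probe set at the trp level, so that 0 were bright with probe sets averaged. Other nuclear receptor genes were in the middle band, with PPARD at 7.66 ± 0.03, NR1H2 at 7.12 ± 0.18, RARA at 7.05 ± 0.15, RXRA at 6.46 ± 0.20, PPARA at 5.96 ± 0.07, RXRB at 5.19 ± 0.40, PPARG at 5.08 ± 0.23, NR1H3 at 4.46 ± 0.07 and the coactivator NCOA1 at 8.61 ± 0.04. THRA was dim (3.24 ± 0.01).

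Of 32 measured receptors of growth factors and cytokines 22 lay above the trp level (76.5% of named genes did) and 1 was bright (18.8%), TGFBR2 (10.56 ± 0.03), which has another probe set at the trp level. TGFBR2 was just inside the bright limit by its mean and under it on replicates 2 and 3. TNFRSF1A (10.52 ± 0.07), the main tumour necrosis factor receptor, ACVR1 (9.86), BMPR1A (9.75 ± 0.08), IGF2R (9.59 ± 0.15), FZD1 (9.44 ± 0.13), OSMR (9.09 ± 0.09) and MET (8.71 ± 0.13), the hepatocyte growth factor receptor, were in the middle band. EGFR gave 2.82, 2.81 and 2.84 and INSR gave 2.95, 2.92 and 2.96, both dim, as were KIT (4.20 ± 0.44), LRP5 (3.62 ± 0.02), ACVR2B (3.38 ± 0.05), ACVR2A (3.34 ± 0.10) and LEPR (2.81 ± 0.04). IGF1R (2.18 ± 0.14), TGFBR1 (2.11 ± 0.01), ERBB3 (2.18 ± 0.03), FGFR3 (2.29 ± 0.04), FGFR4 (2.23 ± 0.04), IL6R (2.19 ± 0.02), PRLR (2.14 ± 0.02) and TNFRSF1B (1.79 ± 0.01) were at the trp level.

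Secreted growth factors and their antagonists had 29 of 43 members above the trp level and 11 bright, against 76.5% and 18.8% of named genes. The matricellular genes CCN2 (15.10 ± 0.02) and CCN1 (13.84 ± 0.06), which are targets of YAP and SRF in spread cells, were bright. DKK3 (13.40 ± 0.16), IGFBP6 (12.69 ± 0.02), IGFBP3 (11.64 ± 0.06), the activin antagonist FST (12.28 ± 0.19), the fibroblast growth factor gene FGF2 (11.92 ± 0.27), AREG (11.25 ± 0.03), an epidermal growth factor receptor ligand, VEGFC (10.99 ± 0.14) and VEGFA (10.86 ± 0.04) were also bright. FGF1 was bright by 1 of its 12 probe sets (10.89 ± 0.15) and at the trp level by 8. IGF1 was mixed, and IGF2 (2.51 ± 0.05), TGFB1 (2.65 ± 0.04), LIF (2.40), FGF10 (2.39 ± 0.04), WNT11 (2.35 ± 0.02), INHA (2.30 ± 0.02), BMP4 (2.18 ± 0.03), IGFBP2 (2.11 ± 0.02), IGFBP5 (1.85 ± 0.01) and EGF (1.93 ± 0.02) were at the trp level. Of the other binding proteins of insulin-like growth factors, IGFBP7 (10.20 ± 0.03), IGFBP1 (7.13 ± 0.14) and IGFBP4 (6.83 ± 0.27) were in the middle band.

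Of 29 measured chemokines and cytokines 22 lay above the trp level (76.5% of named genes did) and 7 were bright (18.8%), among them several that attract neutrophils. CXCL5 gave 14.64, 14.90 and 14.71, CXCL8 gave 14.01, 13.92 and 14.12 and CXCL2 gave 13.89, 14.05 and 13.92, all ligands of neutrophil chemokine receptors. GRO1, of the same family, stood at 13.62 ± 0.12, and each of its 4 probe sets was bright. CXCL3, a further member of that family, was dim on its 1 probe set, with 2.74, 2.83 and 2.83. IL6 (12.92 ± 0.04), CXCL16 (12.69 ± 0.09) and CCL2 (11.64 ± 0.04), which attracts monocytes, were bright too. IL1A was in the middle band (10.19 ± 0.14), as were IL18 (8.29 ± 0.10), CCL26 (8.01 ± 0.16), CCL20 (7.93 ± 0.51) and IL1B (4.73 ± 0.34). TNF (1.94 ± 0.04), IFNG (2.59 ± 0.05), IL10 (2.43 ± 0.06), IL12A (1.90 ± 0.02), IL13 (2.17 ± 0.06), CCL8 (2.20 ± 0.05) and CXCL14 (2.18 ± 0.03), several of them products of immune cells, were at the trp level.

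Of 36 proteases and their inhibitors 34 lay above the trp level and 20 were bright, against 76.5% and 18.8% of named genes. MMP3 gave 14.78, 14.78 and 14.85 and MMP1 gave 13.47, 13.40 and 13.46, a stromelysin and a collagenase. The inhibitor TIMP1 gave 13.49, 13.37 and 13.25, and TIMP2 (13.18 ± 0.03) and TIMP3 (10.68 ± 0.11) were bright as well. PLAU (13.75 ± 0.05) and PLAT (12.68 ± 0.08), the plasminogen activators, the receptor PLAUR (11.79 ± 0.06), ADAM9 (13.82 ± 0.01), CTSV (13.74 ± 0.06), CTSK (11.71 ± 0.12), the inhibitor CST6, MMP13 (11.87 ± 0.27) and MMP2 (11.09 ± 0.18) were bright, and CTSB (10.80 ± 0.09) was by 1 of 6 probe sets. MMP9 (6.41 ± 0.49), a gelatinase, and MMP14 (4.85 ± 0.13) were in the middle band, and TIMP4 (2.19) and ADAMTS5 (2.19 ± 0.03) were at the trp level.

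Integrins, the receptors of matrix, were above the trp level in 11 of 16 genes and bright in 4, near the shares of all named genes (76.5% and 18.8%). With probe sets averaged, 2 were bright. ITGB5 (14.80 ± 0.02), ITGB1 (14.53 ± 0.09), ITGB3 (12.24 ± 0.04) and ITGAV (11.68 ± 0.08), chains that pair into receptors of fibronectin, vitronectin and osteopontin, were bright, ITGB3 by 1 of 4 probe sets. ITGAE (9.09 ± 0.15), the chain that pairs with ITGB7 on leukocytes, ITGA2 (7.66 ± 0.18), ITGA3 (7.45 ± 0.11), ITGA7 (6.45 ± 0.31), the epithelial chain ITGB6 (6.37 ± 0.62), ITGB4 (5.64 ± 0.18) and ITGA5 (4.93 ± 0.01) were in the middle band. Of the other leukocyte chains, ITGB2 (2.39 ± 0.05), ITGAL (2.24 ± 0.02), ITGB7 (2.33 ± 0.01) and ITGA4 (2.15 ± 0.04) were at the trp level, and so was ITGA10 (2.23 ± 0.04).

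Of 12 Toll-like receptors and adaptors 9 lay above the trp level, near the 76.5% of all named genes, and 1 was bright, beside 18.8%. TLR4, the receptor of lipopolysaccharide, gave 7.35, 7.47 and 7.54, and TLR2, which senses bacterial lipopeptides, gave 6.13, 6.19 and 6.29. Their co-receptor CD14 was named above. The adaptor MYD88 (8.95 ± 0.16) and the signalling genes IRAK1 (9.01 ± 0.07) and TRAF6 (8.52 ± 0.13) were in the middle band, and the kinase IRAK4 (10.96 ± 0.03) was bright. The other probe set of IRAK4 was at 9.14, and with probe sets averaged 0 of the list were bright. TLR3 (4.11 ± 0.10) and TLR6 (3.93 ± 0.08) were dim, and TLR5 (1.96 ± 0.04), TLR9 (2.09 ± 0.04) and LBP (1.97 ± 0.02) were at the trp level.

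Of 22 measured complement genes 11 lay above the trp level and 3 were bright, against 76.5% and 18.8% of named genes. CFB (13.30 ± 0.27), of the alternative pathway, CD46 (13.09 ± 0.09), which protects host cells, and CLU (10.99 ± 0.14) were bright, and C1S (9.95 ± 0.08), C3 (9.81 ± 0.10), CD55 (9.59 ± 0.05), SERPING1 (8.89 ± 0.07) and C1R (8.28 ± 0.12) were in the middle band. C1QA (1.89 ± 0.03), C1QB (2.03 ± 0.04) and C1QC (1.57 ± 0.03), which macrophages make, and C5 (2.18 ± 0.02), C6 (2.44 ± 0.03), C7 (2.14 ± 0.02), C8B (2.38 ± 0.04) and C9 (2.29 ± 0.02) of the lytic complex were at the trp level.

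Of the genes of MHC class I and peptide loading 14 of 14 lay above the trp level and 6 were bright. Among all named genes these shares were 76.5% and 18.8%. B2M, the light chain, gave 14.37, 14.22 and 14.43, and the class I gene BOLA stood at 9.47 ± 0.25. The peptide transporter genes TAP2 (11.01 ± 0.01) and TAP1 (9.18 ± 0.13), the chaperones CANX (12.19 ± 0.10), PDIA3 (11.27 ± 0.04), CALR (9.91 ± 0.22) and TAPBP (9.50 ± 0.13), the activator subunits PSME1 (12.22 ± 0.09) and PSME2 (11.09 ± 0.10), the trimming enzyme ERAP1 (6.79 ± 0.27) and the immunoproteasome subunits PSMB9 (9.18 ± 0.19), PSMB10 (7.97 ± 0.23) and PSMB8 (7.06 ± 0.25) filled the bright and middle bands.

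Housekeeping genes were mostly bright, against 18.8% of all named genes. Of 63 measured cytosolic ribosomal proteins 61 were bright, with a median level of 14.60 and RPL7 the highest (15.60 ± 0.03), followed by RPL27A (15.22 ± 0.02), RPL4 (15.18 ± 0.04), RPS24 (15.17 ± 0.01), RPS18 (15.04 ± 0.02), RPL39 (15.03 ± 0.06), RPL17 (14.94 ± 0.02) and RPL3 (14.93 ± 0.02). The exceptions were RPS19 (2.82 ± 0.10) and RPL37 (3.26 ± 0.26), both dim. Among the 100 named genes with the highest signals, from 14.28 to 15.60, 50 were of this list.

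Reference genes used in quantitative PCR were all above the trp level, and 21 of 27 were bright, against 76.5% and 18.8% of named genes. ACTB gave 15.05, 15.01 and 15.02 and GAPDH gave 14.31, 14.26 and 14.35. EEF1A1 (15.19 ± 0.06), RPLP0 (14.57 ± 0.04), RPS15 (14.48 ± 0.09), H2AZ1 (14.18 ± 0.03), HSP90AB1 (14.17 ± 0.03) and PGK1 (14.14 ± 0.06) were bright. UXT (9.70 ± 0.14), GUSB (9.54 ± 0.09), TBP (8.98), POLR2A (8.13 ± 0.17), TFRC (7.54 ± 0.11) and YWHAG (5.00 ± 0.23) were in the middle band. The SD of the 27 genes between arrays reached at most 0.23, the SD of YWHAG.

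Of 24 genes of glycolysis and glucose transport 19 lay above the trp level, near the 76.5% of all named genes, and 11 were bright, against 18.8%. LDHA (14.71 ± 0.04), ENO1 (14.55 ± 0.05), LDHB (13.43 ± 0.03), TPI1 (13.15 ± 0.05), ALDOA (13.06 ± 0.02), GPI (12.72 ± 0.06), PGAM1 (12.70 ± 0.03), HK1 (11.64 ± 0.03) and the glucose transporter SLC2A1 (11.64 ± 0.06) were bright along with GAPDH and PGK1, 11 in all. The muscle forms PGAM2 (2.31 ± 0.06) and ENO3 (2.01 ± 0.02) and the transporters SLC2A2 (2.32 ± 0.05), SLC2A3 (1.76 ± 0.04) and SLC2A4 (2.22 ± 0.02) were at the trp level.

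Cytoskeletal genes were bright in 16 of 20 cases, against 18.8% of all named genes. ACTG1 (15.23 ± 0.01), TMSB10 (14.75 ± 0.06), TPM1 (14.73 ± 0.04), MYL12A (14.65 ± 0.01), TPM4 (14.59 ± 0.06) and MYL6 (13.92 ± 0.06), parts of actin filaments and their motors, were among them beside ACTB and VIM. Of 33 cell cycle genes 32 lay above the trp level and 9 were bright, beside 76.5% and 18.8% of all named genes. RRM2 (13.11 ± 0.03), PCNA (12.90 ± 0.01), MCM6 (12.17 ± 0.06), RRM1 (11.53 ± 0.04) and MCM7 (11.53 ± 0.11) of DNA synthesis, CDK1 (12.09 ± 0.07), CCNB1 (11.66 ± 0.18) and UBE2C (11.64 ± 0.05) of mitosis and the cell cycle inhibitor CDKN1A (11.34 ± 0.15) were bright. CDKN2B was at the trp level (1.71 ± 0.03).

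Apart from the 63 listed ribosomal proteins, the 30 named genes with the highest signals spanned 14.56 to 15.42. They held translation factors and ribosome-bound proteins (EEF1A1, EEF1B2, RACK1), the growth-related gene TPT1 (15.42 ± 0.03), cytoskeletal genes (ACTG1, ACTB, TMSB10, TPM1, TPM4, MYL12A), chaperones (HSPA8, HSPD1, PTGES3) and genes of redox and iron handling (TXN, and FTH1 at 14.98 ± 0.05). Matrix and secreted products in this set were THBS1 (15.15 ± 0.08), which encodes thrombospondin 1, CCN2, MMP3, CXCL5, COL3A1 and DCN. ANXA1 (14.78) and S100A10 (14.71 ± 0.02) encode calcium-linked membrane proteins, CALM a calcium sensor and LDHA lactate dehydrogenase. CDK5R1 (15.37 ± 0.03), a gene known from neurons, and POMC (14.70 ± 0.03), the precursor of pituitary hormones, also stood there by the array's annotation, and the other probe set of POMC had a mean of 7.57. CDK5R1 was bright by 3 of its 4 probe sets, and the dimmest was at 4.95. THBS1 was bright by 4 of 6, and THBS1 and RACK1 each had 1 probe set at the trp level (2.26 and 2.60). The integrin gene ITGB5 and 2 further ribosomal protein genes or copies by name that the list did not hold (RPL15P and RPS4Y1) completed the set.

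The spread between the 3 pools was small for most genes. Among the 7005 named genes above the trp level the median SD was 0.09 and the 95th percentile 0.29, and 4139 genes kept within a range of 0.2. In 47 genes (0.671%) the arrays ranged over more than 1 log2 unit. Of these 47 genes replicate 2 was lowest in 22, replicate 3 in 20 and replicate 1 in 5, and replicate 1 was highest in 22, replicate 3 in 20 and replicate 2 in 5. Over all 7005 genes replicate 3 was lowest in 41.5%, replicate 2 in 30.8% and replicate 1 in 27.6%. In 28 named genes all 3 arrays held the same value, so their SD of 0 is no measure of the spread between pools.

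The 15 genes with the largest SD were of mixed function. UBD, which encodes the ubiquitin-like protein FAT10, gave 5.06, 3.01 and 6.34, a range of over 3 units. S100A12 gave 8.46, 7.12 and 9.04 and S100A8 gave 7.54, 6.27 and 7.93, calgranulins of neutrophils and of stressed epithelia. In all of these replicate 2 was lowest and replicate 3 highest. BOLA-DQA2, an MHC class II chain, gave 4.80, 3.13 and 5.13, SERPINA1, the gene of a protease inhibitor of the acute phase, gave 6.86, 5.39 and 7.11, and the chemokine gene CCL5 gave 4.58, 3.65 and 4.95. The same order held for SLC6A14 (7.63, 6.56 and 8.26), an amino acid transporter, VNN2 (7.05, 5.92 and 7.52), CLCA3 (7.46, 6.67 and 8.18), SLC5A1 (5.43, 4.43 and 5.78) and LTF. Of these 15 genes 12 were lowest on replicate 2, beside 22 of the 47 genes that hold them.

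The remaining genes of the 15 differed in pattern. BOLA-N, another MHC gene, gave 6.00, 4.81 and 5.79, lowest on replicate 2 but highest on replicate 1. SIVA1 (4.41 ± 0.72) was higher on replicate 1 than on the others, and ARHGAP29, which gave 7.66, 7.67 and 6.43, was lower on replicate 3. TAT, the gene of tyrosine aminotransferase, gave 4.30, 5.77 and 5.12 and ran the other way, highest on replicate 2. Without replicate 2 the mean level was 9.66 for LTF and 4.76 for CCL5.

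**Figure D5:**
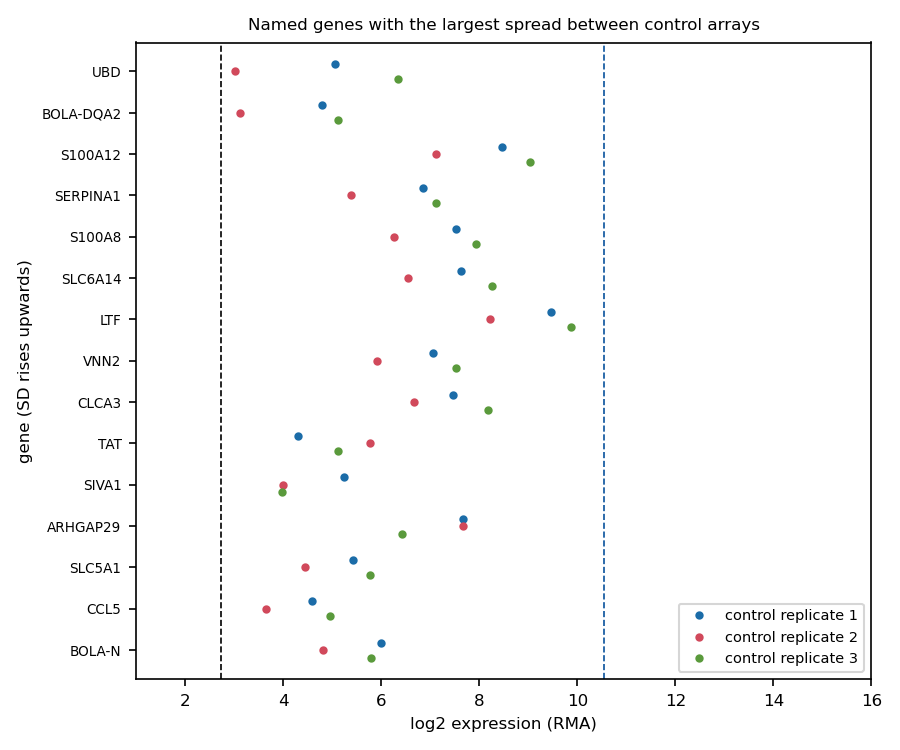
The 15 named genes with the largest SD between the control arrays (vertical axis, SD rising upwards) by level on each array (log2 expression, 1 point per array), with dashed lines at the trp level (2.73) and the bright limit (10.55). Replicate 2 is the lowest point in 12 of the 15 genes shown, and in 22 of the 47 genes that ranged over more than 1 log2 unit.

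The summed signals of marker lists moved little between the same arrays, though some single members moved more. The log2 of the summed linear signal of the 23 leukocyte markers was 8.66, 8.44 and 8.62 on replicates 1, 2 and 3, lowest on replicate 2. The brightest member, CD14, gave 7.29, 7.05 and 7.20. BOLA-DRA gave 4.27, 3.90 and 4.97, LAPTM5 gave 5.65, 4.86 and 4.98, and PTPRC gave 3.68, 3.65 and 3.75. CD3E, ITGAM and TYROBP were at the trp level. That of the 25 epithelial markers lay between 15.96 (replicate 2) and 16.02 (replicate 1), and that of the 27 stromal markers 17.29, 17.39 and 17.35. The spiked transcripts were also lowest on replicate 2, as given above. The part of the leukocyte signal, of the epithelial share or of labelling in the values of the 15 genes on replicate 2 was not tested.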

How the data were processed

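Total RNA (100 ng per sample) was labelled with an Affymetrix 3' IVT Express kit and hybridised to Affymetrix bovine arrays, per the labels' protocols. The submitters' processing notes name RMA and Partek, without versions, for the log2 values that the authors deposited. Whether all 9 arrays were normalised together was not stated; if so, the control values depend on arrays not used here. No detection calls were used.

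The mean and SD of the 3 control arrays were computed from the deposited log2 values with Python 3.11.15, pandas 2.3.3 and numpy 2.4.6. No further normalisation, filter or test was applied. The banding code was run on simulated data and scored only for features well away from the limits. That run does not show how stable the bands of genes near a limit are. Of 24016 probe sets 13292 had 1 gene symbol in the array annotation, 86 several and 10638 none; 13283 of 13318 annotated entries matched the RefSeq table of ARS-UCD2.0, and 0 symbols changed. Of 775 listed symbols 607 were measured. The number of arrays, 3, limits the precision.

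The co-culture, the 29 gene lists and the named genes were chosen with earlier results of these data known. Named were the 30 highest genes other than ribosomal proteins, all members of lists of up to 16 genes, otherwise up to 8 brightest and 8 at the trp level (dim receptors too), a few genes of the LPA, interferon, steroid and prostaglandin pathways, the 15 genes with the largest SD, and members whose probe sets disagreed. Other list members named in the text were chosen after their values were seen.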

Additional observations from a re-analysis of the deposited data

How the results depend on the processing

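Centring each array on its median, setting each array against its own trp values, using the mean over arrays against the trp level and leaving out each control array in turn moved no list count by more than 1.5 times. By their construction, centring and leaving out 1 of 3 arrays can hardly move a mean level by more than its SD, so they say nothing of how stable the levels are. Raising the trp level by 1 left 0 endothelial markers above it, and the median trp value put 11 leukocyte markers above it. At the raised level PTPRC, CD68, LPAR1 and SLCO2A1 also no longer lay above it on every array. The same held for the dim receptor genes EGFR, INSR, LEPR, ACVR2A, ACVR2B and LRP5. Their lists moved by no more than 1.5 times in count and are not named among the shifts. Averaging the probe sets of a gene left 0 endothelial markers above the trp level and changed the number of bright members to 0 for genes of other tissues, steroid and nuclear receptors, growth factor receptors and Toll-like receptors, and to 2 for JAK-STAT genes, prostaglandin synthesis and integrins; CDH1 moved to 9.62, COL1A1 to 6.36 and COL3A1 to 14.45. With the dimmest probe set, 0 endothelial markers, 4 genes of other tissues, 13 growth factor receptors and 7 integrins lay above the trp level. Bright members then numbered 0 for genes of other tissues, steroid and nuclear receptors, growth factor receptors and Toll-like receptors, 2 for JAK-STAT genes and prostaglandin synthesis, 7 for secreted growth factors, 13 for proteases and 1 for integrins, and CDH1 stood at 7.06, COL1A1 at 2.36 and COL3A1 at 14.17. With bright taken from the 75th percentile there were 3748 bright named genes. Bright members then numbered 18 for epithelial markers, 7 for uterine gland genes, 3 for patterning factors, 2 for smooth muscle, 5 for genes of other tissues, 5 for LPA metabolism, 8 for interferon-stimulated genes, 1 for prostaglandin receptors, 4 for steroid and nuclear receptors, 9 for growth factor receptors, 17 for secreted growth factors, 4 for Toll-like receptors, 7 for complement, 11 for MHC class I and 24 for cell cycle genes. These shifts follow from how each alternative was built. No paired analysis was possible because the values come from 1 group and no test. Signals near the trp level limit what can be read of weak genes.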
